A study of Homo sapiens with 18 samples.

Results

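Expression of 8 genes was followed in 3 human acute myeloid leukaemia lines: RUNX1T1, PAX5, POU4F1, CD79A, CD79B, BLK, EBF1 and POU2AF1. They were chosen by gene symbol, as RUNX1T1 and B-lineage genes linked to leukaemia with the t(8;21) translocation, and each symbol matched 1 Ensembl ID among the 40184 genes of the deposited table. Molm-14 and MV4-11 carry FLT3-ITD, an activating internal duplication in the receptor kinase FLT3, and SKNO-1 carries KIT N822K, a mutation in the receptor kinase KIT. Treatment lasted 24 h, with DMSO as vehicle control or RMC-4550 at 500 nM, an inhibitor of the phosphatase SHP2 (PTPN11), which passes signals from receptor kinases to RAS. There were 3 libraries in each of the 6 groups, named biological replicates in the labels, so the p-values measure the spread between these libraries. The SKNO-1 medium alone contained the cytokine GM-CSF (10 ng/mL), so its genotype, its other line-specific features and its medium cannot be told apart. Totals were 17434810 to 19959917 reads per library. Values up to 500 reads, the range checked, converted back to whole reads, and higher values were rounded. In 4 libraries mitochondrial genes took 10.5% to 15.02% of the reads (Molm-14 RMC-4550 replicate 2, MV4-11 DMSO replicates 1 and 3, and MV4-11 RMC-4550 replicate 1), against 5.07% to 7.02% in the other 14.

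RUNX1T1 encodes ETO, a corepressor that is normally silent in blood cells, and in t(8;21) leukaemia its coding exons are joined to RUNX1 to give the RUNX1::RUNX1T1 fusion, for which SKNO-1 is a standard model. PAX5 and EBF1 are the transcription factors that commit progenitors to the B lineage, POU2AF1 is a B-cell coactivator of octamer-binding factors, CD79A and CD79B are the signalling chains of the B-cell receptor, and BLK is a SRC family kinase of B cells. POU4F1 is a homeodomain factor of sensory neurons. PAX5, CD79A and POU4F1 are known from patient samples as genes that this leukaemia expresses. The labels do not mention the translocation, and reads counted per gene do not separate RUNX1T1 from the fusion transcript.

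The 8 genes did not share a pattern over the lines. With DMSO, RUNX1T1 alone was on in SKNO-1 and at the floor in both other lines (1 of 8). PAX5, POU4F1 and EBF1 were highest in Molm-14, CD79A and BLK were on in both MV4-11 and SKNO-1, CD79B was highest in SKNO-1 with reads in MV4-11 as well, and POU2AF1 was at the floor in every group. The data therefore go against a description of the set as markers of SKNO-1. Here the floor is 3 reads per library, which is 0.138 to 0.192 CPM (reads scaled to library size) depending on the library, and a gene is called on where all 3 libraries of a group reach 1 CPM. Earlier results of these data were known when the genes were chosen, so levels by line are given as description, with no test. In bulk RNA, fewer cells that express a gene and less of its RNA per cell cannot be told apart.

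Sequence upstream of the RefSeq start site is shown for 3 of the genes. For CD79A it is the 91 bases of the 250-base window farthest from that start, up to where an annotated exon begins. PAX5 and POU4F1 are shown because both rose with RMC-4550 in SKNO-1, and CD79A because its window holds a RUNX motif. The sequences are from RefSeq promoters on GRCh38.p14, 5′ to 3′ on the gene's strand, limited to bases outside annotated exons, at chr9:37034269-37034518 (minus strand) for PAX5, chr13:78603561-78603802 (minus strand) for POU4F1 and chr19:41877029-41877119 (plus strand) for CD79A. Capitals mark motif matches.
PAX5: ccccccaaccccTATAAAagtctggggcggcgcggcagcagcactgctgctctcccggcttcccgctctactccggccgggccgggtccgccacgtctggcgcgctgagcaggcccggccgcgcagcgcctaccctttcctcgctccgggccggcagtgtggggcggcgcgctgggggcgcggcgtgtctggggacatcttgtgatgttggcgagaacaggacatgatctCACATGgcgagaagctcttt
POU4F1: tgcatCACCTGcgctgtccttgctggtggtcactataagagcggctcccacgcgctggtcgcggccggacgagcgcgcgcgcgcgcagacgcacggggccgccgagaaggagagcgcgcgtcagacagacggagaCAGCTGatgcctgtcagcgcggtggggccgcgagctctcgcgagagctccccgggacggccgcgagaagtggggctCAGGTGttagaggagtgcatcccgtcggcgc
CD79A: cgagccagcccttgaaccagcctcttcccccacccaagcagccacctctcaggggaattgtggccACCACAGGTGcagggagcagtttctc
Both strands of the 250 bases upstream of 35116 RefSeq start sites were searched. The RUNX motif TGTGGT was found in 10.98% of them, the EBF motif CCCNNGGG in 17.05%, the octamer ATGCAAAT in 1.632%, the E-box CANNTG in 61.82% and the core promoter element TATAAA in 10.72%. The PAX5 window held 1 TATAAA match 238 bases and 1 E-box match 20 bases before the RefSeq start. That of POU4F1 held 3 E-box matches, at 245, 115 and 39 bases before it. In CD79A, 1 RUNX match on the opposite strand and 1 E-box match share 2 bases and lie 185 and 181 bases before the RefSeq start. Such matches describe letters in the window and are not evidence of binding.

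RUNX1T1, the fusion partner (ENSG00000079102, GRCh38, chromosome 8, 91954967 to 92103286, minus strand), had 286, 302 and 306 reads in the SKNO-1 DMSO libraries, or 13.2, 13.9 and 14.4 CPM. With RMC-4550 the SKNO-1 libraries had 257, 269 and 237 reads, or 11.9, 12.5 and 10.9 CPM. Molm-14 had 0 reads in all 6 libraries, and MV4-11 had 1 read in 1 of its 6. The SKNO-1 DMSO mean of 13.8 ± 0.61 CPM (SD, n = 3) was thus at least 81.8-fold higher than the Molm-14 floor and at least 83.9-fold higher than the MV4-11 floor, taking 3 reads per library as the floor. RUNX1T1 was 0.23 lower on the log2 scale with RMC-4550 in SKNO-1 (fitted change -0.23, SE 0.39). The groups did not overlap, but the change did not pass the test in limma-trend (adjusted p = 0.707). The fit shares 1 estimate of spread over all lines, including libraries at 0 and 1 read. Fitted to SKNO-1 alone, the same change had an adjusted p of 0.0349 in limma. That separate fit called 57.6% of all genes tested, against 27.1% in the fit over all lines.

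PAX5 (ENSG00000196092, GRCh38, chromosome 9, 36833275 to 37034185, minus strand), the B-lineage commitment factor, changed with RMC-4550 in opposite directions in Molm-14 and SKNO-1. In SKNO-1 the DMSO libraries had 8, 16 and 10 reads (0.37, 0.73 and 0.47 CPM), and the RMC-4550 libraries 45, 51 and 31 reads (2.08, 2.37 and 1.43 CPM). Every treated library lay above every control, and the controls were close to the floor. Summed over the 3 libraries, 34 reads with DMSO allow 23.5 to 47.5 and 127 with RMC-4550 allow 106 to 151 (exact 95% Poisson intervals, counting error only). PAX5 rose by 1.88 on the log2 scale in SKNO-1 (SE 0.28, limma-trend adjusted p = 1.2e-04). The log2 change depends on the offset at such levels, and it was 0.95 on the log2(CPM + 1) scale, with an adjusted p of 0.00217 in limma-trend.

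In Molm-14, PAX5 started far higher, at 266, 294 and 281 reads (14.8, 16.9 and 15.7 CPM) with DMSO. The RMC-4550 libraries had 160, 77 and 118 reads (8.75, 4.93 and 6.67 CPM), all below the controls. The lowest was replicate 2, the library with the highest mitochondrial share of all 18. PAX5 fell by 1.25 on the log2 scale in Molm-14 (SE 0.28, limma-trend adjusted p = 0.0018), and by 1.04 in the libraries under 10% mitochondrial reads. In MV4-11 the values were 123, 224 and 104 reads (6.62, 11.5 and 6.22 CPM) with DMSO and 157, 195 and 198 reads (8.29, 9.87 and 10.1 CPM) with RMC-4550, and the groups overlapped. The fitted MV4-11 difference was 0.27 (adjusted p = 0.606, limma-trend). It was -0.20 without the libraries over 10% mitochondrial reads, where DMSO replicate 2 was the only MV4-11 control left. The 2 lowest MV4-11 controls were the 2 with high mitochondrial shares, 12.7% and 14.6%. With DMSO the order was Molm-14, MV4-11 and SKNO-1, with no overlap between neighbours, and Molm-14 was 30.1-fold above SKNO-1. With RMC-4550 the Molm-14 and MV4-11 libraries overlapped, and Molm-14 was 3.46-fold above SKNO-1.

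POU4F1 (ENSG00000152192, GRCh38, chromosome 13, 78598362 to 78603560, minus strand), the neuronal homeodomain factor, was also highest in Molm-14. With DMSO the Molm-14 libraries had 229, 229 and 247 reads (12.7, 13.2 and 13.8 CPM), and with RMC-4550 191, 154 and 200 reads (10.4, 9.86 and 11.3 CPM). These groups did not overlap, but the fitted change of -0.33 (SE 0.25) did not pass the test (limma-trend adjusted p = 0.295). MV4-11 had 30, 62 and 34 reads with DMSO and 38, 45 and 55 with RMC-4550, which overlapped (0.09, SE 0.25, adjusted p = 0.856 in limma-trend). As with PAX5, the controls with high mitochondrial shares were the 2 lowest. SKNO-1 had 13, 16 and 21 reads (0.60, 0.73 and 0.99 CPM) with DMSO and 24, 42 and 30 reads (1.11, 1.95 and 1.38 CPM) with RMC-4550. POU4F1 rose by 0.90 on the log2 scale in SKNO-1 (SE 0.25, limma-trend adjusted p = 0.0138). The call was lost with quantile normalization (0.74, adjusted p = 0.063), without SKNO-1 DMSO replicate 1 (0.74) and without SKNO-1 RMC-4550 replicate 2 (0.69), and on the log2(CPM + 1) scale the change was 0.47. PAX5 and POU4F1 passed the filter on low values in SKNO-1 only through the RMC-4550 group, a condition that favours genes that rose, and both were still called with no filter on low values (limma-trend adjusted p = 1.0e-04 and 0.026). POU4F1 overlaps the exons of an antisense gene, which had at most a mean of 0.337 CPM in any group.

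EBF1 (ENSG00000164330, GRCh38, chromosome 5, 158695916 to 159099761, minus strand), the factor that acts with PAX5 in B-cell commitment, was at the floor in SKNO-1. SKNO-1 had 0, 0 and 1 reads with DMSO and 1, 0 and 0 with RMC-4550. Molm-14 had 15, 6 and 11 reads (0.83, 0.35 and 0.61 CPM) with DMSO and 21, 31 and 22 reads (1.15, 1.99 and 1.24 CPM) with RMC-4550. All treated Molm-14 libraries were above the controls, and the gene passed the filter only through them. The fitted change of 1.29 (SE 0.79) did not pass the test in limma-trend (adjusted p = 0.192), nor with no filter on low values (adjusted p = 0.356). MV4-11 had 6, 5 and 0 reads with DMSO and 8, 4 and 8 with RMC-4550, and EBF1 was not tested there. POU2AF1 (ENSG00000110777, GRCh38, chromosome 11, 111352252 to 111455630, minus strand), the octamer coactivator, had 0 to 2 reads in each of the 18 libraries and was not tested in any line.

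CD79A (ENSG00000105369, GRCh38, chromosome 19, 41877120 to 41881372, plus strand) had 33, 42 and 29 reads in SKNO-1 with DMSO and 43, 63 and 52 with RMC-4550, or a mean of 1.6 ± 0.29 and 2.43 ± 0.468 CPM (SD, n = 3). MV4-11 had 27, 21 and 24 reads with DMSO and 48, 37 and 31 with RMC-4550, or 1.32 ± 0.214 and 1.99 ± 0.492 CPM. The SKNO-1 and MV4-11 levels overlapped in each treatment, while Molm-14 was lower, at 5, 7 and 8 reads with DMSO and 13, 20 and 3 with RMC-4550. In both MV4-11 and SKNO-1 every treated library lay above every control, but the fitted changes of 0.57 (SE 0.48) and 0.59 (SE 0.48) did not pass the test (limma-trend adjusted p = 0.497 and 0.399). Fitted to SKNO-1 alone, the 0.59 had an adjusted p of 0.0216 in limma, where 57.6% of all genes tested were called.

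CD79B (ENSG00000007312, GRCh38, chromosome 17, 63928740 to 63932354, minus strand), the partner chain, had 22, 25 and 26 reads in SKNO-1 with DMSO and 27, 29 and 33 with RMC-4550. MV4-11 had 10, 11 and 14 reads with DMSO and 8, 12 and 7 with RMC-4550, and Molm-14 had 1 to 3 reads in each library. The SKNO-1 mean with DMSO, 1.13 ± 0.106 CPM, was 1.75-fold that of MV4-11 with no overlap, and at least 6.68-fold higher than the Molm-14 floor. The SKNO-1 change of 0.27 (SE 0.33) did not pass the test (limma-trend adjusted p = 0.585). Both receptor chains stayed between 0 and 3 CPM in all 18 libraries. CD79B shares exon sequence with AC127029.3, a protein-coding gene on the same strand that has no values in these data. How reads in the shared exons were assigned is not known here.

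BLK (ENSG00000136573, GRCh38, chromosome 8, 11486894 to 11564604, plus strand), the B-cell SRC family kinase, had 0 reads in all 6 Molm-14 libraries. SKNO-1 had 117, 148 and 127 reads (5.4, 6.79 and 5.98 CPM) with DMSO and 203, 234 and 258 reads (9.39, 10.9 and 11.9 CPM) with RMC-4550. BLK rose by 0.82 on the log2 scale in SKNO-1 (SE 0.21, limma-trend adjusted p = 0.0084). MV4-11 had 106, 80 and 101 reads (5.7, 4.09 and 6.04 CPM) with DMSO and 164, 125 and 152 reads (8.66, 6.33 and 7.71 CPM) with RMC-4550. Here too the treated libraries lay above the controls, but the change of 0.53 (SE 0.21) did not pass the test (limma-trend adjusted p = 0.118). It passed under 4 of the 29 alternatives, one of which used the mitochondrial share as a covariate (0.67, limma-trend adjusted p = 0.0379). With DMSO the MV4-11 and SKNO-1 libraries overlapped, and with RMC-4550 SKNO-1 was 1.41-fold higher with no overlap. BLK shares exon sequence with the antisense gene AC022239.1, which had means of 1.65 CPM with DMSO and 2.83 with RMC-4550 in SKNO-1, and 1.79 and 1.95 CPM in MV4-11. The strand setting of the counting is not given in the sources used here, so reads of the pair cannot be told apart.

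**Figure D1:**
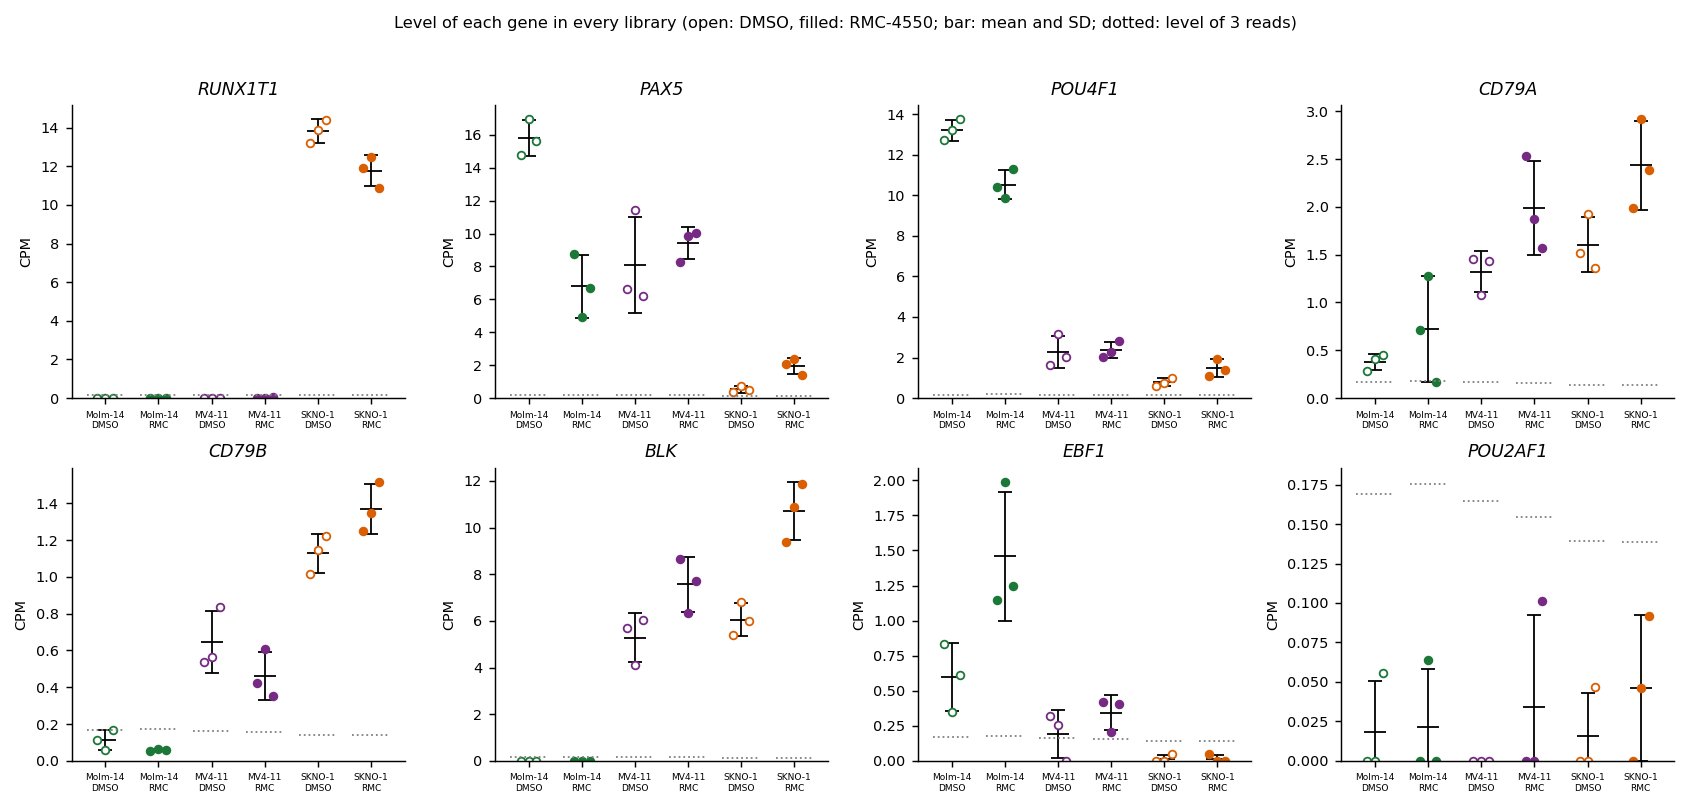
CPM of the 8 genes in every library, by line and treatment. Open circles are DMSO and filled circles RMC-4550, bars give the mean and SD of 3 libraries, and the dotted lines mark the level of 3 reads. RUNX1T1 is on in SKNO-1 alone, PAX5 and POU4F1 are highest in Molm-14, and BLK is at 0 in Molm-14.

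Across the set, 6 genes could be tested in SKNO-1, 4 in MV4-11 and 3 in Molm-14. In SKNO-1, PAX5, POU4F1 and BLK passed as higher and none as lower, against 10.8% of all genes tested called higher, 16.2% called lower and 27.1% called in either direction. In Molm-14, PAX5 passed as lower and none as higher, where 25.2% of all genes were called lower, 21.5% higher and 46.7% in either direction. In MV4-11, limma-trend called 0 of the 4 genes, and 1 (BLK) had an unadjusted p under 0.05, while 13.9% of all genes were called, 5.85% higher and 8.03% lower. Libraries of the 2 treatments did not overlap for 6 of 6 genes in SKNO-1 (62% of all genes tested), 2 of 4 in MV4-11 (24.6% of all) and 3 of 3 in Molm-14 (60% of all). The median change of the tested genes was 0.70 in SKNO-1, where that of all genes was -0.05. It was 0.40 in MV4-11 and -0.33 in Molm-14, where all genes had -0.01 and -0.06. Genes that entered only through a treated group raise such counts and medians, so they are given as description.

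**Figure D2:**
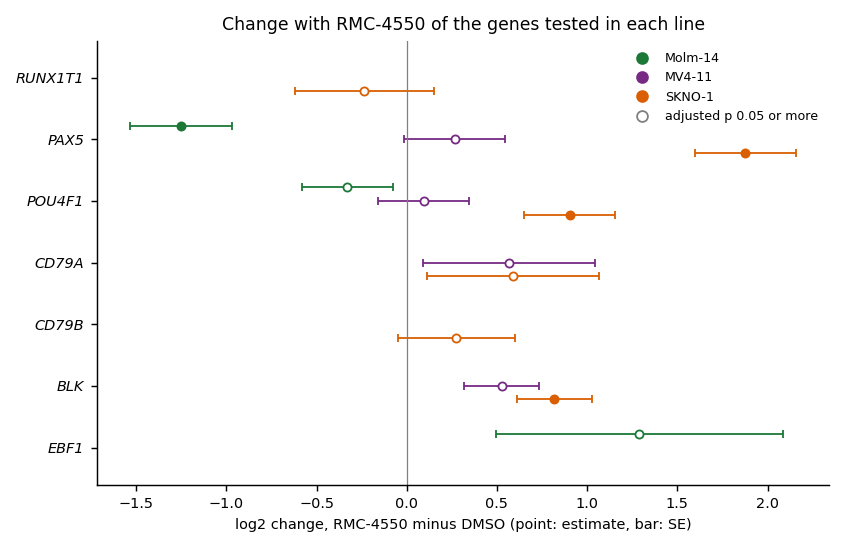
Fitted log2 change with RMC-4550 for each gene tested, by line; bars are SE and open symbols did not pass the test. PAX5 lies at -1.25 in Molm-14 and 1.88 in SKNO-1, on opposite sides of 0.

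The responses were compared between lines for genes tested in both, which gave 8 differences, of which 3 passed. The PAX5 response of SKNO-1 exceeded that of Molm-14 by 3.13 on the log2 scale (SE 0.40, limma-trend adjusted p = 1.1e-04), where 10.9% of all genes differed. In SKNO-1, PAX5 and POU4F1 entered these tests only through the treated libraries, a condition that favours genes that rose there. The PAX5 call was kept under 29 of 29 alternatives, including no filter on low values. The POU4F1 response of SKNO-1 exceeded that of Molm-14 by 1.23 (SE 0.36, adjusted p = 0.0361, limma-trend), a call lost with quantile normalization, with no filter and without 9 single libraries, all of Molm-14 or SKNO-1. The PAX5 response of Molm-14 was below that of MV4-11 (-1.52, SE 0.40, limma-trend adjusted p = 0.0164), where 19.5% of all genes differed. Between SKNO-1 and MV4-11, where 1.66% of all genes differed, PAX5 differed by 1.61 (SE 0.40, adjusted p = 0.0542 in limma-trend) and did not pass. Without the libraries over 10% mitochondrial reads these 2 differences were -0.84 and 2.08. DMSO replicate 2 was then the only MV4-11 control, so those 2 values are given as sizes alone. The other differences from MV4-11 did not pass in limma-trend, at 0.81 for POU4F1 in SKNO-1 (SE 0.36, adjusted p = 0.356), 0.29 for BLK (SE 0.30, adjusted p = 0.705), 0.02 for CD79A (SE 0.67, adjusted p = 0.992) and -0.42 for POU4F1 in Molm-14 (SE 0.36, adjusted p = 0.382).

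Levels were also divided by annotated exon length. That length takes all annotated transcripts of a gene together, and need not be that of the transcript expressed. No spread was computed for these values, so close ones are not ordered. In SKNO-1 with DMSO, BLK stood at 1.19, CD79A at 1.07 and RUNX1T1 at 1.02 CPM per kb, while CD79B stood at 0.543, POU4F1 at 0.17 and PAX5 at 0.0562. In Molm-14 the highest were POU4F1 at 2.91 and PAX5 at 1.69 CPM per kb. In MV4-11 the highest were BLK at 1.04, CD79A at 0.879 and PAX5 at 0.868. All 3 lines expressed at least 11 of 12 myeloid markers above the floor. Of 8 B-cell markers 5 were above the floor in SKNO-1, with a summed level of 40.1 to 43.5 CPM with DMSO and 56.3 to 67.4 CPM with RMC-4550, while MS4A1 (CD20), CR2 and IGHD were at the floor in all 6 groups. In MV4-11 the sum was 30.6 to 51.2 CPM with DMSO and 48.6 to 75.2 with RMC-4550, and in Molm-14 2.28 to 3.45 and 5.71 to 11.4 CPM. Other marker sums also differed with treatment. The myeloid sum was 2555 to 2872 CPM with DMSO and 2947 to 3469 with RMC-4550 in SKNO-1, 2553 to 2612 and 2997 to 4055 CPM in Molm-14, and overlapped in MV4-11. The sum of 7 T-cell markers was 11.8 to 14.1 and 2.54 to 4.1 CPM in Molm-14, 4.5 to 6.58 and 1.58 to 2.03 CPM in MV4-11, and 0.895 to 1.24 and 1.33 to 1.49 CPM in SKNO-1. The part of these sums in the results was not tested.

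The genes around these 8, called companion genes here, were followed through 9 lists of 110 genes in all, of which 103 were analysed here, and RAG2, DNTT, IGLC1, TNFRSF13B, POU2AF2, POU2AF3 and LCK were not. With RMC-4550 in SKNO-1, 80 were tested, and 16 rose and 8 fell, beside 10.8% and 16.2% of all genes. The 24 calls are 30% of those tested, beside 27.1% of all genes. They became 45 with the mitochondrial share as a covariate (49.6% of all genes called), 50 in the libraries under 10% mitochondrial reads (53.3% of all) and 58 fitted to SKNO-1 alone (57.6% of all). In Molm-14 18 of 70 rose and 15 fell, where 21.5% and 25.2% of all genes did. In MV4-11 13 of 74 rose and 7 fell, where 5.85% and 8.03% of all genes did. The median change of the 80 in SKNO-1 was 0.07. Of 66 tested in all 3 lines, the genes that rose in all 3 included SPIB, PRDM1, BLNK, PLCG2, VAV1 and RUNX3, and CBFB, PRMT1 and CCND2 fell in all 3. The share of all genes called alike in all 3 lines was not counted, so these names are description.

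Among 11 other B-lineage transcription factors tested in SKNO-1, 3 rose and none fell, where 10.8% of all genes rose and 16.2% fell. The lists were not tested as sets, so counts by list are description. SPIB, an ETS factor of B and plasmacytoid dendritic cells, rose from 3.37 to 7.87 CPM (log2 1.22, SE 0.17), and by 1.57 in Molm-14 and 1.42 in MV4-11. TCF4 (E2-2), a dendritic and B-lineage E protein, rose by 0.93 in SKNO-1 and fell by 0.86 in Molm-14, the same opposite signs as PAX5. The difference of 1.79 (SE 0.23) was singled out after its values were seen, so it is given with no test. PRDM1 (BLIMP-1), the plasma cell factor that represses PAX5, rose by 0.79 in SKNO-1, 1.64 in Molm-14 and 0.56 in MV4-11. Of the receptor and recombination genes 2 of 4 tested rose and none fell. IGKC, the kappa constant segment, rose from 4.09 to 13.4 CPM (log2 1.73, SE 0.51), a call lost without SKNO-1 DMSO replicate 1 or 2 or RMC-4550 replicate 2 or 3, and IGHM, the mu heavy chain, rose from 0.989 to 2.08 CPM (log2 1.09, SE 0.29), a call lost without SKNO-1 DMSO replicate 2. IGHM entered the SKNO-1 test only through the treated libraries, and was still called there with no filter on low values. In Molm-14 IGHM had 4 reads in each control and 39, 56 and 33 reads with RMC-4550. It entered that test, too, only through the treated libraries, and was singled out after its values were seen, so it is given as reads alone.

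Of 14 B-cell receptor signalling genes tested in SKNO-1, 6 rose and none fell, beside 10.8% and 16.2% of all genes. In Molm-14 5 of 14 rose and 2 fell, beside 21.5% and 25.2% of all genes. In MV4-11 3 of 14 rose and none fell, beside 5.85% and 8.03%. The adaptor BLNK had the largest change named in SKNO-1, 1.19 (SE 0.21). PRKCB, LYN and PLCG2 rose by 0.47, 0.44 and 0.33, calls that were each lost on leaving out any of the 6 SKNO-1 libraries, and for LYN also without any Molm-14 control. Of 8 surface genes 2 rose and none fell: FCRLA, a B-cell Fc receptor-like protein, from 0.802 to 2.63 CPM (log2 1.71, tested only through the treated libraries) and CD37, a tetraspanin, by 0.51. Among SRC family kinases besides BLK, LYN rose as above and YES1 fell by 0.60 (lost without SKNO-1 DMSO replicate 1 or RMC-4550 replicate 1 or 3).

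Among 6 ETO and RUNX family genes, CBFA2T3 (ETO2), a corepressor related to RUNX1T1, rose by 0.46 in SKNO-1 and RUNX3 by 0.22 (lost without SKNO-1 DMSO replicate 1 or RMC-4550 replicate 2 or 3), while CBFB, the RUNX cofactor, fell by 0.58 and CBFA2T2 by 0.35. RUNX1 itself, at 317 CPM with DMSO and 354 CPM with RMC-4550 in SKNO-1, did not pass (0.16, SE 0.11, limma-trend adjusted p = 0.291). Of 16 fusion complex and corepressor genes none rose and 2 fell, the haematopoietic factor GATA2 by 0.71 and the arginine methyltransferase PRMT1 by 0.64. Of 14 tested transcripts known from t(8;21) leukaemia none rose and 2 fell, the adhesion molecule NCAM1 (CD56) by 0.75 and the cyclin CCND2 by 0.47. Both counts stand beside 10.8% of all genes called higher in SKNO-1 and 16.2% called lower. EBF3, a relative of EBF1, fell by 0.54.

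**Figure D3:**
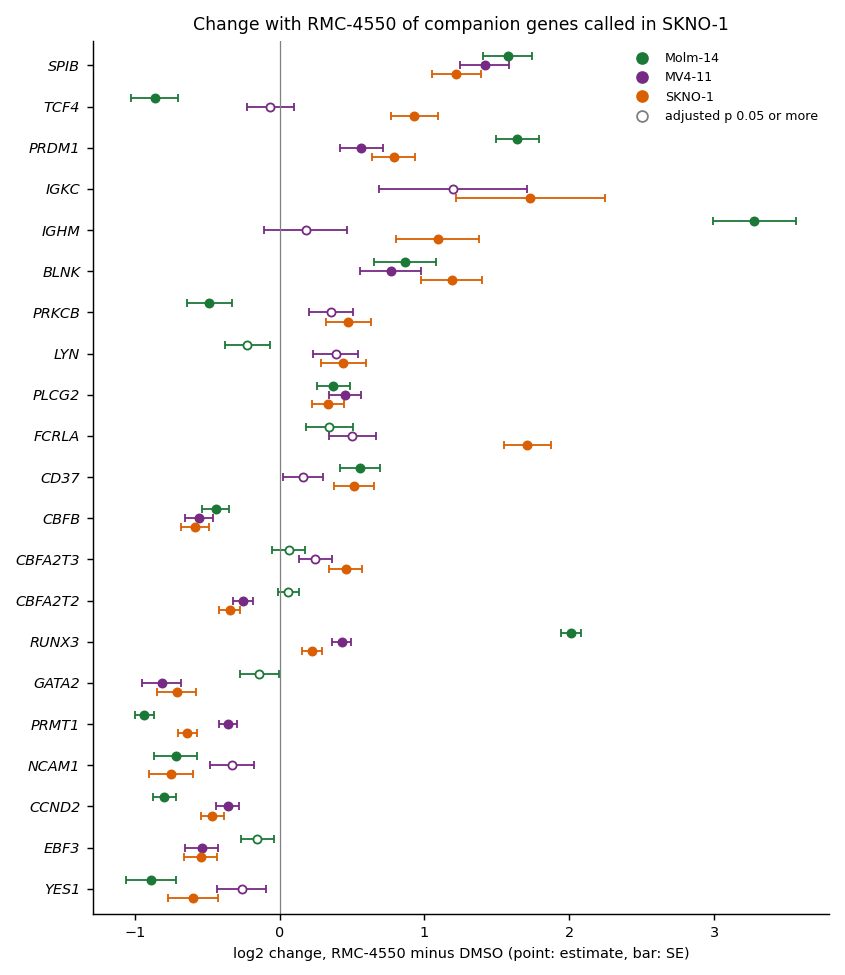
Fitted log2 change with RMC-4550 in each line for the listed genes named from SKNO-1; bars are SE and open symbols did not pass the test. SPIB, PRDM1 and BLNK lie above 0 in all 3 lines, and TCF4 lies at 0.93 in SKNO-1 and -0.86 in Molm-14.

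The lists were also compared between lines with DMSO. Against Molm-14, 38 of 77 tested were higher in SKNO-1 and 21 lower, beside 31.8% and 33.6% of all genes. Against MV4-11, 28 of 79 were higher and 16 lower, beside 20.1% and 22.4% of all genes. Of 77 tested against both lines, 26 (33.8%) were higher than in both and 12 (15.6%) lower, beside 14.7% and 18.8% of all genes. Of the 26, 9 entered a test only through SKNO-1, where they are high, among them TRH, ROBO1 and ERG. Entry only through the other lines was not counted for the 12 lower genes. The transcripts known from t(8;21) leukaemia were higher in SKNO-1 than in both lines for 10 of 15, of which 5 entered a test only through SKNO-1, and lower than in both for 3. TRH, the thyrotropin-releasing hormone precursor, had 98, 106 and 108 reads in SKNO-1 and 0 in every Molm-14 and MV4-11 library, the pattern of RUNX1T1. The guidance receptor ROBO1 had 392, 381 and 354 reads in SKNO-1, 0 in each Molm-14 library and 2, 6 and 2 in MV4-11, and the granule enzyme MPO had 6833, 6880 and 6827 reads in SKNO-1. CAV1 (caveolin), also in that list, was lower in SKNO-1, at -5.42 on the log2 scale against Molm-14 and -4.58 against MV4-11. The ETS factor ERG had 177, 145 and 147 reads in SKNO-1, 0 in Molm-14 and at most 1 in MV4-11.

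Of 11 other B-lineage factors tested, 2 were higher in SKNO-1 than in both lines and 4 lower, counts too small to read against the shares of all genes. IRF4 was higher by 6.95 against Molm-14 and 0.79 against MV4-11, and SPIB by 0.50 and 0.52. IRF4, like IGLL1 and CD24 below, entered a test only through SKNO-1, where it is high. Among the lower genes, FOXO1 was at -3.61 and BCL11A at -1.37 against Molm-14. The surrogate light chain gene IGLL1 averaged 9.17 CPM in SKNO-1, 1.28 in MV4-11 and 0.0192 in Molm-14. CD24 had 72, 61 and 68 reads in SKNO-1 and at most 2 in any library of the other lines, whereas FCRLA differed by -4.87 on the log2 scale from Molm-14 and by -4.78 from MV4-11. FCRLA averaged under 1 CPM in SKNO-1 with DMSO, so it entered these tests through the other lines, where it is high. The IRF4 call against MV4-11 was lost when the mitochondrial share was a covariate (0.30), and without MV4-11 DMSO replicate 1 (0.73) or 3 (0.67). In the libraries under 10% mitochondrial reads, where DMSO replicate 2 was the only MV4-11 control, the IRF4 difference was 0.41 and that of SYK 0.02. The SYK call against MV4-11 was lost under 10 of 29 alternatives and is not used here. The SPIB calls were lost without SKNO-1 DMSO replicate 2, against MV4-11 without MV4-11 DMSO replicate 2, and against Molm-14 with quantile normalization (0.15, limma-trend adjusted p = 0.423).

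**Figure D4:**
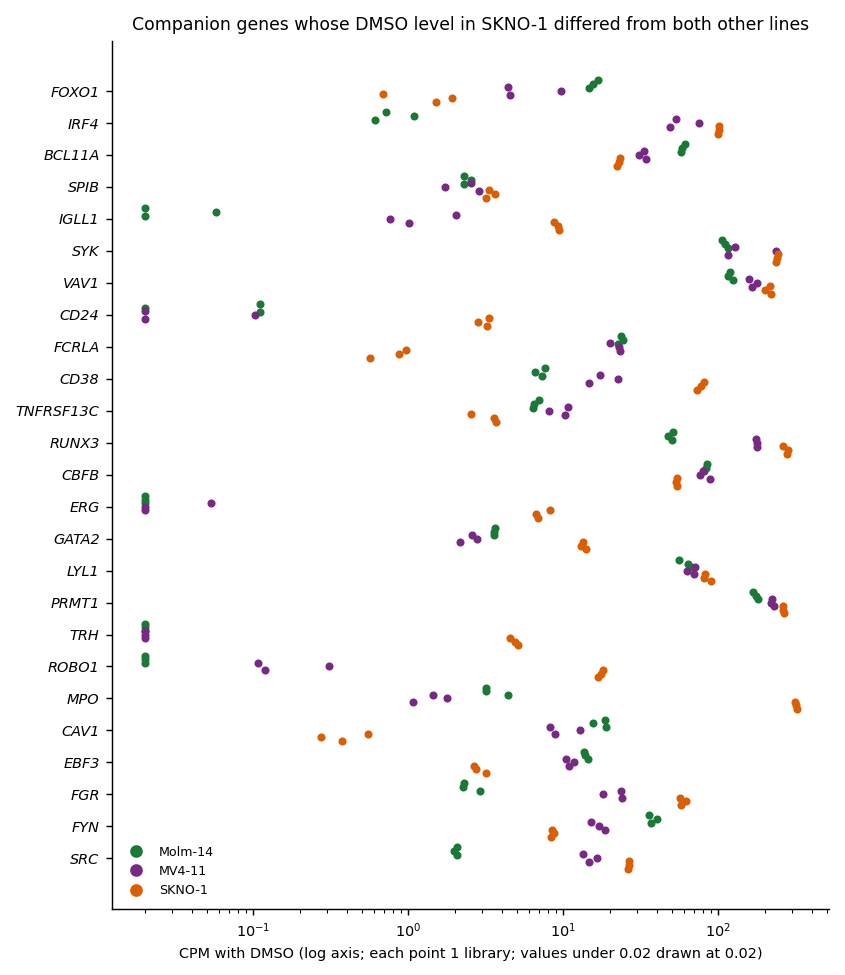
CPM with DMSO in each library, on a log axis, for listed genes whose SKNO-1 level differed from both other lines; values under 0.02 are drawn at 0.02. TRH and ERG are at or near 0 outside SKNO-1, while FCRLA and CAV1 are lowest in SKNO-1.

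The genes most like each member were found by Pearson r over the log2 values of the 18 libraries, among 16261 genes. These values follow the 3 lines, which share depth and preparation, so r mostly ranks how alike the differences between lines are. Genes at r of 0.9 or more numbered 1413 for BLK, 1054 for CD79B and 440 for POU4F1. They numbered 172 for RUNX1T1, 128 for PAX5 and 110 for CD79A. RUNX1T1 was most like the gene with ID ENSG00000248347 (r = 0.997), TRH (0.996) and the pseudogene CLEC4OP (0.996). BLK was most like ARMCX4 (0.999), which was also at 0 in Molm-14, and averaged 5.97 and 8.2 CPM in MV4-11 and 7.31 and 12.9 CPM in SKNO-1 for DMSO and RMC-4550. CD79A was most like GPBAR1 (0.953), and CD79B most like MAPRE3 (0.983). For PAX5, added after its values were seen, the first was DHRS9 (0.962), with means of 44.7 and 19.6 CPM in Molm-14 and 0.839 and 5.01 CPM in SKNO-1 for DMSO and RMC-4550. For POU4F1, likewise added, it was JAZF1 (0.974), at 19.8 CPM in Molm-14 and 0.202 CPM in SKNO-1 with DMSO.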

How the data were processed

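RNA of 18 samples (6 groups of 3) was sequenced after oligo(dT) selection, per the labels' protocols. The submitters' processing notes name FastQC, STAR, limma and GRCh38; the read counter, annotation and strand setting are not given in the sources used here. The deposited values are log2 of reads plus 0.5 divided by a scaled library size (CPM); the authors' scaling was inverted, and 100% of values up to 500 reads in each library were whole reads within 0.01. 

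limma 3.58.1 (R 4.3.3) with an intensity trend was fitted to the deposited log2 values, with 1 coefficient per group and 2-sided tests. Genes needed 1 CPM in 3 samples overall (16262 genes) and in 3 samples of the lines compared. p-values were Benjamini-Hochberg adjusted over all genes tested, with calls at adjusted p under 0.05. The script was tested on simulated data. Library totals of 17434810 to 19959917 reads put the floor of 3 reads at 0.138 to 0.192 CPM, and Poisson intervals cover counting error only. Positions and exon lengths are from GENCODE 29.

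The genes and lists were chosen with earlier results of these data known. All 8 genes are named, and from each list at most 4 genes called in SKNO-1 with RMC-4550 and 4 called against both other lines, by size of change, given 1 CPM in the higher group. A few others (RUNX1 and IGHM responses, the TCF4 difference between lines, PAX5 and POU4F1 likeness) were named after their values were seen. Some genes that the rule selects are not reported here, though list counts include them. The alternatives were other offsets, filters, scalings, variance models and sample sets. No alternative used a count model, since the deposited unit is log2.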

Additional observations from a re-analysis of the deposited data

Results flagged for a closer look

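For 3 values the response to RMC-4550 differed between lines by a test of the difference itself, in limma-trend with adjustment over all genes tested. The PAX5 response of SKNO-1 minus that of Molm-14 was 3.13 on the log2 scale (adjusted p = 1.1e-04), with PAX5 higher in 3 of 3 treated SKNO-1 libraries and lower in 3 of 3 treated Molm-14 libraries than in any control. PAX5 entered the SKNO-1 test only through the treated libraries, a condition that favours genes that rose. Its call was kept under 29 of 29 alternatives, including no filter on low values. The POU4F1 response of SKNO-1 minus that of Molm-14 was 1.234 (adjusted p = 0.0361, limma-trend); POU4F1 entered the SKNO-1 test only through the treated libraries, and the call was lost under 11 of 29 alternatives, including no filter on low values (adjusted p = 0.0717). The PAX5 response of Molm-14 minus that of MV4-11 was -1.518 (adjusted p = 0.0164, limma-trend). MV4-11 DMSO replicates 1 and 3, MV4-11 RMC-4550 replicate 1 and Molm-14 RMC-4550 replicate 2 had over 10% mitochondrial reads. Without them the difference was -0.84, and DMSO replicate 2 was then the only MV4-11 control.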

How the results depend on the processing

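The numbers of the 8 genes called with RMC-4550 were 3 in SKNO-1, 1 in Molm-14 and 0 in MV4-11. In Molm-14 it became 2 with EBF1 added, at a change of 0.62 with log2(CPM + 1), 1.19 with log2(CPM + 0.1), 1.27 with voom weights and 1.29 in a separate fit per line. In MV4-11 it became 1 with BLK added, at 0.45 with log2(CPM + 1), 0.53 without a trend, 0.53 with voom weights and 0.67 when the mitochondrial share was a covariate. In SKNO-1 it became 5 in a separate fit per line, with RUNX1T1 at -0.23 and CD79A at 0.59 added. That fit called 57.6% of all genes tested in SKNO-1. POU4F1 in SKNO-1 was lost with quantile normalization (0.74) and ranged from 0.69 to 1.09 over leave-one-out fits. Leaving out 1 library at a time gave 2 to 3 genes in SKNO-1, 1 in Molm-14 and 0 in MV4-11.

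Genes whose response differed between lines numbered 2, and 1 with no filter on low values, 1 with quantile normalization and 1 to 2 over leave-one-out fits. In MV4-11 the sign of PAX5 turned without the libraries over 10% mitochondrial reads (-0.20), and that of POU4F1 turned there (-0.33), with the covariate (-0.061) and in some leave-one-out fits (range -0.12 to 0.36). The CD79A response of SKNO-1 minus MV4-11, near 0 throughout, was -0.073 with quantile normalization, -0.39 with the covariate, -0.073 in the libraries under 10% mitochondrial reads and -0.13 to 0.21 over leave-one-out fits. The POU4F1 response of Molm-14 minus MV4-11 was 0.045 in those libraries. DMSO replicate 2 was the only MV4-11 control among them, so all values from that set rest on 1 library in that arm. The cause of these shifts was not tested.

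Listed genes called with RMC-4550 in SKNO-1 numbered 24, and 45 with the covariate, 50 in the libraries under 10% mitochondrial reads, 58 in a separate fit per line and 18 to 30 over leave-one-out fits; all genes called were 27.1%, 49.6%, 53.3% and 57.6% under the first 4 of these, so calls increased over all genes too. Same-numbered libraries did not deviate together in every pair (r from -0.40 to 0.59). With 3 libraries per group these values cannot show or exclude that the numbers pair the samples. With a replicate block, 1, 0 and 3 of the 8 genes and 22 listed genes were called, and PAX5 in SKNO-1 stayed at 1.88 (limma-trend adjusted p = 2.3e-04). Leave-one-out fits leave an arm with 2 libraries and use the spread of all groups. Depth limits PAX5, POU4F1, CD79A and CD79B in SKNO-1 and EBF1 in Molm-14, which rest on 63 or fewer reads per library.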
